A study of Mus musculus with 2 samples.

Results

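The genes described here are 8 intermediate filament genes of mouse kidney, chosen by name as all probe sets whose platform symbol is Krt7, Krt8, Krt18, Krt19, Krt20, Vim, Des or Nes. They are read by 15 probe sets, of 45037 on the array beside the control probe sets, and are 8 of 18193 named genes. The 5 keratins had 7 probe sets, and the 3 filament genes of mesenchymal and progenitor cells, Vim, Des and Nes, had 8. Total kidney RNA of 2 groups of mice was measured on Affymetrix arrays, 1 array per group. The cystic group, which models nephronophthisis type 2, was homozygous for inv and carried the inv-deltaC::GFP transgene. The transgene encodes inversin without its C-terminus. Mice homozygous for inv that carry it have renal cysts without the situs defect of inv mice. The control group had normal inv alleles (+/+) and the same transgene, so both groups carried it, and no source used here gives its promoter. By the series design both were 4 weeks old. It also speaks of 2 kidneys, and the number of animals behind an array is not stated. The cystic array is labelled as female and 28 days old, and the control array carries neither label.

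Intermediate filaments are rope-like polymers of the cytoskeleton whose protein type marks the cell. Keratins are made by epithelia and form obligate pairs of an acidic type I chain and a basic type II chain. Krt8 (type II) and Krt18 (type I) are the pair of simple epithelia, and Krt7 (type II), Krt19 and Krt20 (type I) join them in ducts and in the urothelium. Apart from Krt20, these keratins are known in the adult kidney mainly from the collecting duct and distal segments, and injured tubules can make more of them. Vimentin (Vim) is the filament of fibroblasts, endothelium, podocytes and leukocytes, and regenerating tubule cells can also make it. Desmin (Des) belongs to muscle, pericytes and mesangial cells, and nestin (Nes), first known from neural progenitors, is found in podocytes and blood vessels of the kidney.

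Values are linear MAS5 signals, and each array's floor is its median signal, 61.9 for cystic and 55.4 for control. Probe sets that miss both floors count as not measured, and one that misses a single floor gives a bound. At a limit of 2-fold, 848 of 12015 measured genes (7.06%) were higher in cystic kidney and 454 (3.78%) lower, and the log2 ratio (cystic minus control) had a median of 0.09. The higher genes were 65.1% of those past 2-fold, and 47.5% after centring the arrays on their median signals. With 1 array per group there is no test and no p-value, and "rose" and "fell" mean past this fixed 2-fold limit. The only measure of error is technical, the SD of log2 ratios between probe sets of 1 gene, which was 0.29 when pooled over 4694 genes. Kidney markers were present, with all 8 proximal tubule and all 10 collecting duct genes of the lists above the floor on both arrays. The brightest probe set of Invs, the mutated gene, had a signal of 15.9 in the cystic kidney and 118 in the control kidney, at least 1.91-fold lower in the cystic kidney, and which part of the transcript it reads was not examined. The female label of the cystic array went against its Xist signal. The X-inactivation RNA Xist was under the floor there, at 57.4 in the cystic and 387 in the control kidney at its brightest probe set. The Y-linked gene Uty had nearly equal signals, at 198 in the cystic and 206 in the control kidney. Xist thus differed between the arrays together with the genotype, and the part of sex in the results below was not tested.

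Of the 8 filament genes, 6 rose in the cystic kidney and none fell, against the 7.06% of all measured genes that rose. They were Krt7, Krt8, Krt18, Krt19, Vim and Nes, while Krt20 and Des gave bounds under 2-fold. Of the 15 probe sets, 13 were measured and 9 rose, against 6.19% of all measured probe sets, and none fell, against 3.37%. One measured probe set, of Nes, had a log2 ratio below 0. The keratins had a median log2 ratio of 1.44 over 5 genes, with bounds taken at their value, and the mesenchymal filaments one of 1.16 over 3 genes. In bulk RNA, more cells of a type and more RNA per cell cannot be told apart.

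**Figure D1:**
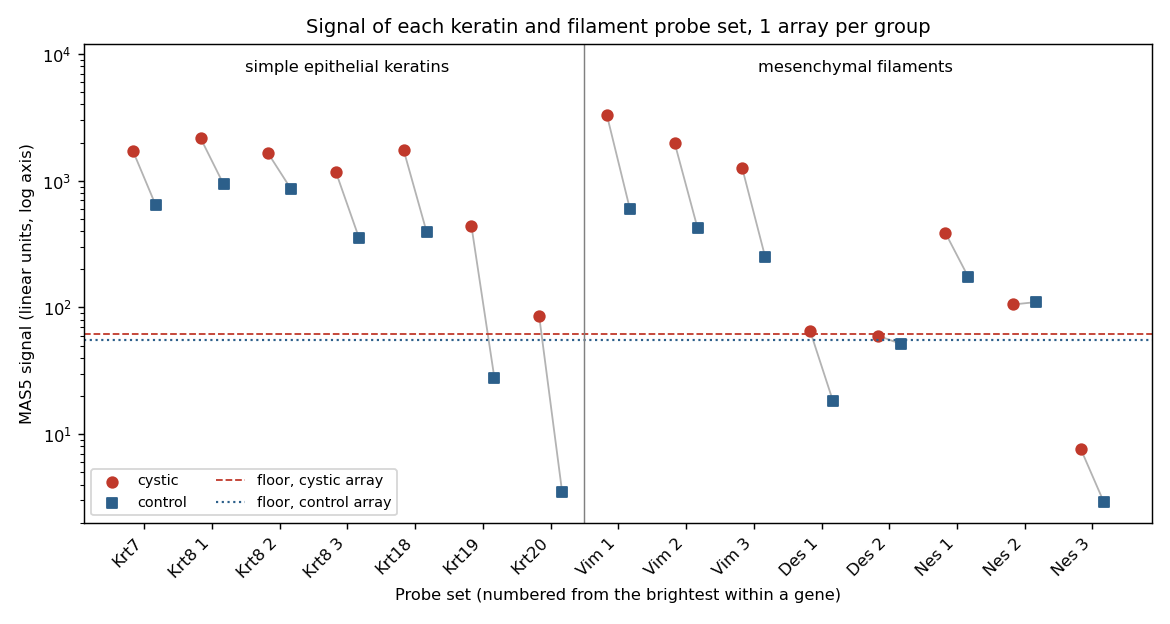
MAS5 signal (log axis) of each of the 15 probe sets, cystic (circles) left of control (squares), with 1 array per group and a line per array's floor. Every probe set of Krt7, Krt8, Krt18 and Vim lies above both floors and is higher in the cystic kidney, Krt19 and Krt20 are under the floor in the control kidney only, and 1 Nes probe set has nearly the same signal on both arrays.

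Krt8 is the type II keratin of the pair of simple epithelia. Its brightest probe set had a signal of 2172.8 in the cystic kidney and 939.3 in the control kidney, which is 2.31-fold higher in the cystic kidney. The second had 1640.8 in the cystic and 854.5 in the control kidney, and the dimmest 1168.7 in the cystic and 354.6 in the control kidney. All 3 were higher in the cystic kidney, but by different amounts, with log2 ratios of 1.21, 0.94 and 1.72. The second is thus just under 2-fold and the dimmest 3.30-fold. Their SD was 0.40, above the pooled value of 0.29. These other probe sets carry the suffix of probe sets that may bind related transcripts (_x_at), and binding of other keratin transcripts to them was not tested.

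Krt18, the type I partner of Krt8, was read by 1 probe set, with a signal of 1742.6 in the cystic kidney and 392.6 in the control kidney. It was 4.44-fold higher, a log2 ratio of 2.15, which stands at rank 102 of the 12015 measured genes. The log2 ratio of Krt18 was 0.94 above that of Krt8 at its brightest probe set and 0.43 above that of the dimmest Krt8 probe set. Krt18 thus lay above each of the 3 Krt8 probe sets, by an amount that depends on the Krt8 probe set taken. The distance of 0.43 is close to the SD of the Krt8 probe sets, 0.40. The SD between probe sets is that of single ratios from 1 pair of arrays. A difference of ratios varies more, and variation between animals was not measured.

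Krt7, a type II keratin of ducts and urothelium, had a signal of 1729.6 in the cystic kidney and 638.3 in the control kidney at its single probe set. This was 2.71-fold higher, a log2 ratio of 1.44, between those of Krt8 and Krt18. Its distance from the brightest Krt8 probe set, 0.23, was within the SD between probe sets.

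Krt19 is the small type I keratin that lacks most of the tail domain and is used as a marker of ductal and bile duct epithelium. Its only probe set had a signal of 441.8 in the cystic kidney and 27.7 in the control kidney, which is under the floor of 55.4. The bound was at least 7.97-fold higher for the cystic kidney, rank 28 of 12015. This place is that of a bound set by the floor: with the floor at the 60th percentile the ratio was below that of Vim, and with no floor below that of Krt20 (3.95 against 4.27). Where the floor is set moves this bound, to 3.62 on the log2 scale when the floor is each array's 40th percentile and to 2.33 when it is the 60th.

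Krt20, the type I keratin of the gut lining and of umbrella cells of the urothelium, had a signal of 86.0 in the cystic kidney and 3.5 in the control kidney. The cystic signal was above its floor of 61.9 and the control signal far under its own. The bound was therefore at least 1.55-fold, a log2 ratio of 0.63, and it leaves the size of the difference unknown. With the floor at the 40th percentile the bound was 1.26, past 2-fold. Among the keratins, Krt7, Krt8 and Krt18 were above the floor on both arrays, and Krt19 and Krt20 on the cystic array alone.

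Vim was read by 3 probe sets that differed little. Its brightest one had a signal of 3311.1 in the cystic kidney and 600.8 in the control kidney, the second 1999.5 in the cystic and 422.3 in the control kidney, and the dimmest 1251.6 in the cystic and 248.3 in the control kidney. Their log2 ratios of 2.46, 2.24 and 2.33 had an SD of 0.11, and they stand for 5.51-fold, 4.73-fold and 5.04-fold higher signals in the cystic kidney. Vim stood at rank 63 of 12015 genes and had the highest log2 ratio among the 5 genes that passed both floors. Its ratio exceeded that of Krt18 by 0.31, close to the SD between probe sets, and that of Krt8 by 1.25.

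Nes gave probe sets that disagreed. Its brightest one had a signal of 386.7 in the cystic kidney and 172.9 in the control kidney, 2.24-fold higher in the cystic kidney. The second had 105.5 in the cystic and 110.2 in the control kidney, a log2 ratio of -0.06. The dimmest lay under both floors, at 7.6 in the cystic and 2.9 in the control kidney. The log2 ratios of the brightest and second probe sets lay 1.22 apart, 4.2 times the pooled SD, so the call of Nes rests on 1 probe set and is lost with the second one or with the median over probe sets (0.55).

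Des was near the floor throughout. One probe set had a signal of 65.7 in the cystic kidney and 18.2 in the control kidney, which gives a bound of at least 1.19-fold, a log2 ratio of 0.25. The other had 59.9 in the cystic and 51.6 in the control kidney, under the floor on both arrays. No size of a Des difference can be read from these arrays.

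**Figure D2:**
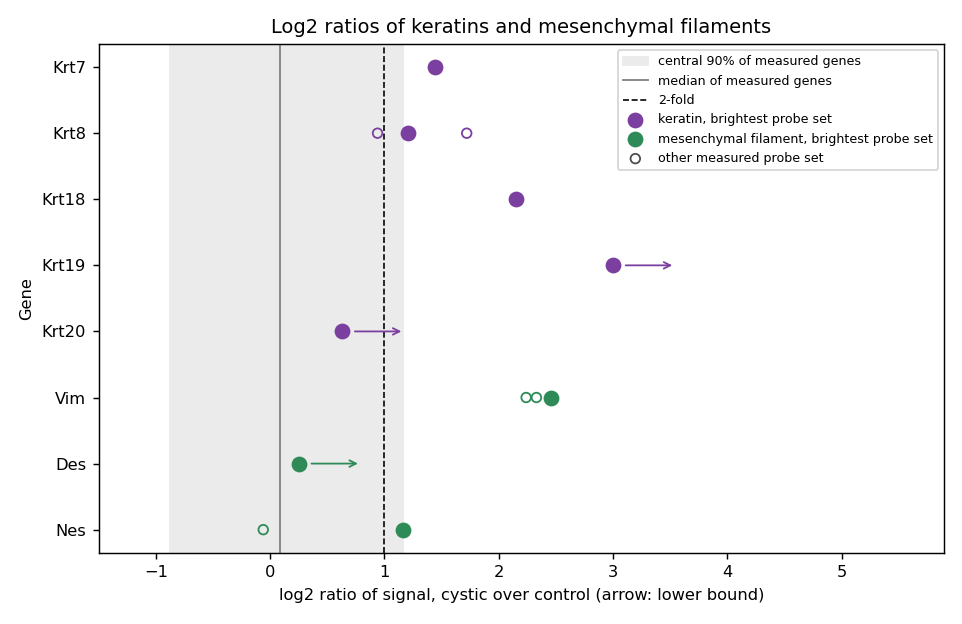
Log2 ratio (cystic over control) of each measured probe set by gene, filled for the brightest and open for the others, with arrows at lower bounds, a dashed line at 2-fold, a grey line at the median of all measured genes (0.09) and a band that holds the central 90% of them (-0.88 to 1.17). Krt18, Krt19 and Vim lie well above the band, Krt7 and Krt8 above it at their brightest probe sets, and Nes has 1 probe set near its upper edge and 1 near 0.

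The classes did not separate by their ratios. The keratin median minus the mesenchymal median was 0.28 on the log2 scale, and each median includes bounds. The SD between probe sets of 1 gene does not measure the spread of a difference of class medians. The difference was -0.02 with the floor at the 60th percentile, where Krt20 and Des drop out. It was -0.15 with second brightest probe sets, where only Krt8, Vim and Nes have a value. It was 0.99 with no floor and 0.89 with the median over probe sets. Without probe sets marked _s_at, _x_at or _a_at, where Krt7 and Krt8 drop out, it was 0.99. The difference was positive in each setting that kept all 8 genes and negative only where genes drop out, and its size was not stable. Within each class the range was wider than between them, from at least 0.63 to at least 3.0 among keratins and from at least 0.25 to 2.46 among mesenchymal filaments.

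**Figure D3:**
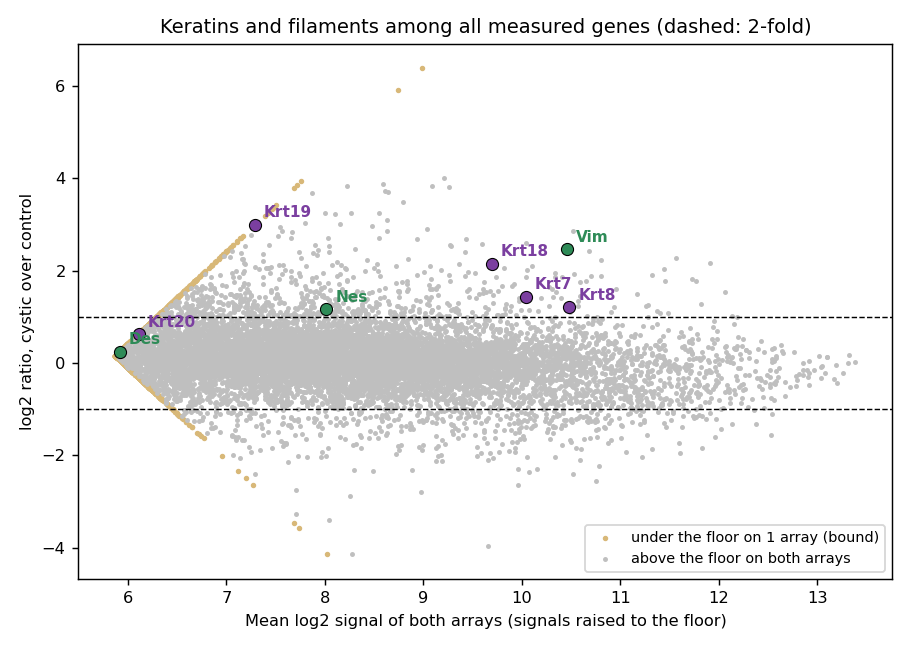
Log2 ratio (cystic over control) of all 12015 measured genes against their mean log2 signal, with the 8 filament genes named and dashed lines at 2-fold. Krt7, Krt8, Krt18, Vim and Nes lie above the upper dashed line, as does Krt19 on the line of bounds, where Krt20 and Des lie below 2-fold.

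Promoter sequences from RefSeq (GRCm38.p6), from 250 bases before to 50 bases after the annotated start, were at hand for 7 of the 8 genes, all but Krt19. Those of the pair Krt8 and Krt18 and of Vim are shown, since they are the simple epithelial pair and the mesenchymal gene with the highest ratio. Capitals mark matches on either strand to any of 4 short motifs. The TATA box was searched for as TATAAA. The CCAAT box was searched for by the letters of its name. The GC box of Sp1-type factors was searched for as GGGCGG. The AP-1 site, bound by Fos and Jun proteins, was searched for as TGANTCA.
Krt8 promoter, chr15:102004293-102004592, minus strand: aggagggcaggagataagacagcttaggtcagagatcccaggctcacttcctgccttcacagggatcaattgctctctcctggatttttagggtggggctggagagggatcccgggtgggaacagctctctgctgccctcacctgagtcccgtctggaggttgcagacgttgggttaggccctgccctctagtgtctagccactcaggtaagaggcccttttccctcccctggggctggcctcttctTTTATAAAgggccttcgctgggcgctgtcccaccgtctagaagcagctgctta
Krt18 promoter, chr15:102027966-102028265, plus strand: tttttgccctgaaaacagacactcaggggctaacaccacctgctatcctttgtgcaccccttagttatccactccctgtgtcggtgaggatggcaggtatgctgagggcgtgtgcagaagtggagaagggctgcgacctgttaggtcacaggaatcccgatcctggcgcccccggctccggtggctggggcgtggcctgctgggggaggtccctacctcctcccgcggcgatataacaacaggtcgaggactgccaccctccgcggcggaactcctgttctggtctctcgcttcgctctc
Vim promoter, chr2:13574061-13574360, plus strand: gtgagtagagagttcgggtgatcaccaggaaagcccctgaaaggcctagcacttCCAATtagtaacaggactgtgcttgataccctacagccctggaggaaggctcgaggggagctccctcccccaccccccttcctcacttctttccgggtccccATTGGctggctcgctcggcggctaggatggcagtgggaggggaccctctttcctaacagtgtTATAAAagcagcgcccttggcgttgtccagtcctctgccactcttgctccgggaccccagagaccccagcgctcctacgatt
The Krt8 window held 2 overlapping TATA box matches, on opposite strands, with their first bases at positions -3 and -1 from the annotated start. The Vim window held 1 TATA box match at position -32 and CCAAT box matches at positions -196 and -94. The Krt18 window held none of the 4 motifs. Of 32851 promoter windows, 13.6% hold a TATA box match, 37.4% a CCAAT box, 35.7% a GC box and 7.81% an AP-1 site. Of the windows not shown, Krt7 held 4 GC box matches and Des and Nes 2 each, and Krt20 held 1 TATA box match. None of the 7 windows held an AP-1 match. The 3 sequences are 58.0%, 61.3% and 59.3% G and C for Krt8, Krt18 and Vim, against a median of 52.7% over all windows. Krt18 and Vim, with like ratios, shared none of these letters in their windows, which says nothing about the factors that bind there.

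Beyond the 8 genes, the table names 43 other keratins, most of them of skin and hair. Of these, 10 were measured, 5 above the floor on both arrays, 1 on the cystic array alone and 4 on the control array alone. None passed 2-fold, against the 7.06% of all measured genes that rose and the 3.78% that fell. In 10 genes, a count of none cannot be told apart from these shares. The median of the 10 was 0.06 with bounds taken at their value. A bound leaves the size of the difference unknown. Krt5, the basal keratin of stratified epithelium and urothelium, had a signal of 79.1 in the cystic and 49.6 in the control kidney, a bound of 0.51. Krt42 had a log2 ratio of 0.19, Krt81 0.16, Krt32 -0.17 and Krt10, a keratin of differentiated epidermis, -0.39. Krt6a had signals of 52.6 in the cystic and 55.7 in the control kidney, and its bound of 0.15 shows no direction. Of 13 other intermediate filament genes, 7 were measured, 4 of them above the floor on both arrays. Their median was 0.06, with bounds taken at their value. Of the 7, 1 rose, against 7.06% of all measured genes. It was Lmna, the nuclear lamin of differentiated cells, with a signal of 429.5 in the cystic and 185.5 in the control kidney, a log2 ratio of 1.21 and of 0.63 at its second probe set. The B-type lamins Lmnb2 and Lmnb1 had a bound of 0.77 and a log2 ratio of 0.60 (second probe set 1.09), and the muscle filament linker Sync had -0.38. The astrocyte filament gene Gfap had -0.02.

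The genes that anchor or bind intermediate filaments were past 2-fold higher in 4 of 22 measured members, none fell, and the median was 0.40. Over all measured genes, 7.06% rose and 3.78% fell. Hspb1, a small heat shock protein that binds filaments, had a log2 ratio of 1.41 (second probe set 2.17), with a signal of 1905.5 in the cystic and 717.7 in the control kidney. The desmosome genes Dsp, whose product desmoplakin ties keratin to the junction, and Dsg2, the desmosomal cadherin of simple epithelia, had 1.30 (second 1.28) and 1.15 (second 1.25). Sfn, an epithelial 14-3-3 protein, was at least 2.01-fold higher. Dst, a linker of the spectraplakin family, and Pkp4 had -0.52 and -0.47. The remaining 18 measured members were within 2-fold or gave bounds under it.

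Lists of cell type markers are given beside the filament genes, and their part in these values was not tested. The counts of each list stand against 7.06% of all measured genes that rose and 3.78% that fell. In lists this small, a count of none or 1 cannot be told apart from these shares. Among 10 junction genes of epithelia, 4 rose, none fell, and the list had a median of 0.77 and a summed signal of 14106 in the cystic and 11422 in the control kidney. The tight junction claudins Cldn4 and Cldn7 had log2 ratios of 2.14 and 1.59, and the epithelial regulators Grhl2 and Esrp1 1.13 (second probe set -0.04) and 1.09, while Ocln and Cdh16 had -0.47 and -0.11. Collecting duct markers rose in 1 of 10, fell in none, and had a median of 0.14 and a summed signal of 6505 in the cystic and 5959 in the control kidney. Gata3 had 1.08, Scnn1g 0.94, Scnn1b 0.65 and Hsd11b2 0.35, and Aqp3 and Foxi1 had -0.75 and -0.56.

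Proximal tubule markers, of cells that in the healthy kidney make little keratin, fell in 6 of 8, rose in none, and had a median of -1.19 and a summed signal of 15195 in the cystic and 32576 in the control kidney. Slc22a6, Slc22a8, Slc13a3 and Lrp2 had -2.06, -1.83 (second probe set -1.09), -1.51 and -1.22. Tubular injury markers rose in 5 of 6 measured members, with a median of 2.39 and a summed signal of 14644 in the cystic and 2228 in the control kidney. Lcn2 was at least 83.2-fold, Havcr1 at least 14.4-fold (second probe set 2.89 in log2) and Cd44 at least 5.21-fold higher (second 1.75), and Vcam1 had a log2 ratio of 2.40. Urothelial markers, which bear on Krt7 and Krt20, rose in none of 7 measured members, with a median of 0.76 and a summed signal of 882 in the cystic and 554 in the control kidney. All 7 had ratios above 0, led by Upk2 (0.93), Upk1b (0.84, and 1.10 at its second probe set, past 2-fold), Psca (0.79) and Upk3b (0.76), and Krt13, Krt14 and Trp63 were under the floor on both arrays. No marker of any of these lists had a signal of 0.

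Fibroblast markers, which bear on Vim, rose in 9 of 10, fell in none, and had a median of 1.70 and a summed signal of 24790 in the cystic and 6231 in the control kidney. Col1a1 had 2.85 (second probe set 1.57), Fn1 2.22, Postn 2.12 and Col1a2 2.04. Macrophage markers rose in 7 of 8, with a median of 2.57 and a summed signal of 9005 in the cystic and 2026 in the control kidney, led by Lyz2 (4.00), C1qa (3.48), Mrc1 (3.25) and Cd14 (2.97). Smooth muscle and pericyte markers rose in 4 of 7 measured members, with a median of 1.26 and a summed signal of 9173 in the cystic and 2512 in the control kidney. Tagln had 3.81, Acta2 2.42, Rgs5 1.26 and Actg2 a bound of 1.39, while Myh11, Cnn1 and Lmod1, of mature smooth muscle, were under the floor on both arrays. Of 6 skeletal muscle genes 5 were under the floor on both arrays, and Ckm was at least 2.09-fold higher, with a signal of 115.7 in the cystic and 50.7 in the control kidney.

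Nestin in the kidney is known from podocytes and vessels. Of 6 podocyte markers none rose and 1 fell, with a median of -0.18 and a summed signal of 2232 in the cystic and 2419 in the control kidney. Nphs1 had -1.07, Podxl -0.85 (second probe set -0.13) and Ptpro -0.60, and Synpo and Cd2ap had 0.65 and 0.59. Of 8 endothelial markers none passed 2-fold, with a median of 0.17 and a summed signal of 3431 in the cystic and 2839 in the control kidney. Eng had 0.94, Pecam1 0.43, Cdh5 and Tie1 0.41 each, and Flt1 and Kdr -0.19 and -0.13. Of the lymphocyte markers 1 was measured, Cd8a, with a bound of -0.36.

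**Figure D4:**
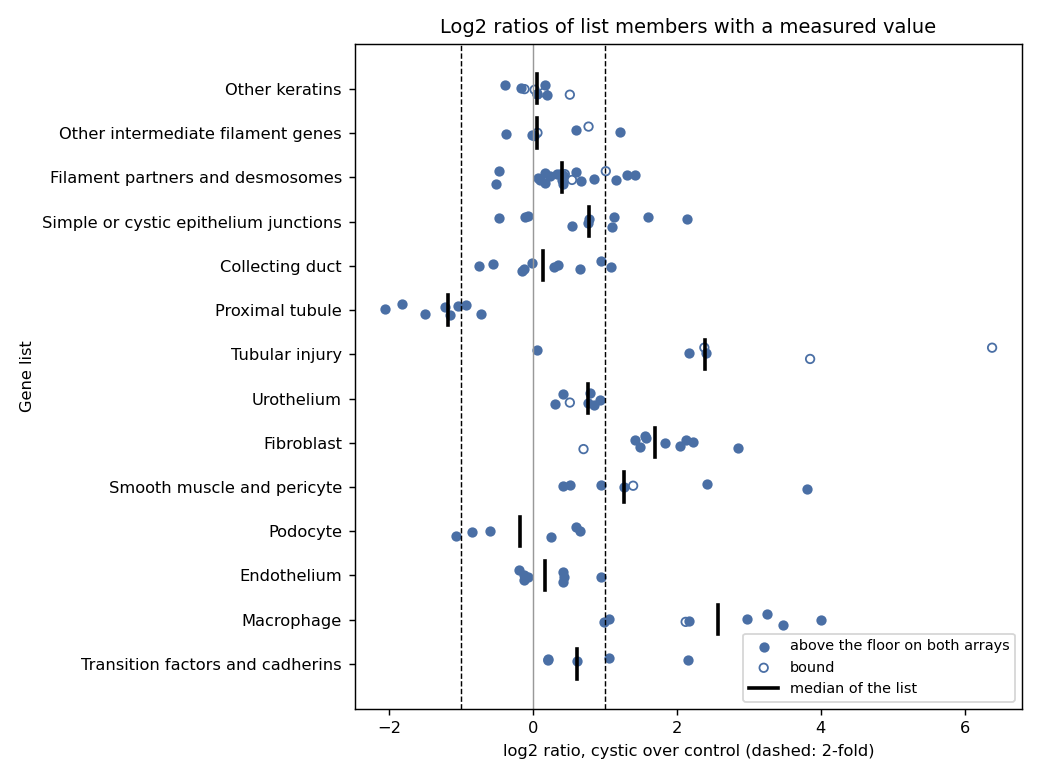
Log2 ratio (cystic over control) of the measured members of each list with at least 5 of them, filled where above the floor on both arrays and open for bounds, with a bar at the list's median and dashed lines at 2-fold. Other keratins are plotted near 0 and within 2-fold, but only 5 of the 10 are above both floors and the others are bounds. Proximal tubule genes lie below 0, and tubular injury, fibroblast and macrophage genes lie mostly past 2-fold above.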

How the data were processed

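Total RNA of kidney was measured on 2 Affymetrix arrays, 1 cystic and 1 control. The authors deposited 1 intensity per probe set, a linear signal from MAS5, per the submitters' processing notes. No source used here gives the MAS5 version, scaling target or detection calls. Their scaling was kept, with 2% trimmed means of 181 (cystic) and 178 (control). The table held 45101 probe sets, of which 64 control probe sets were left out. Platform annotation named 1 gene for 34945, several for 932 and none for 9160, and symbols were updated through a GRCm38.p6 RefSeq table. No probe set naming several genes named one of the 8 genes.

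Signals under an array's median were raised to it, and a probe set under it on both arrays was not measured. A gene took its brightest measured probe set, by mean log2 signal after raising. Python 3.11.15, pandas 2.3.3 and statsmodels 0.14.6 were used, and the steps were tested on simulated arrays. Known changes were planted there only in genes above the floor on both arrays, so changes in genes under a floor were not tried. The genes and lists were chosen with earlier results of these data known. From each list the text names the 4 or fewer members furthest on the side of its median, 2 or fewer on the other side, and every other keratin or filament gene past 2-fold. Genes named as under the floor, Gfap and the sex-linked genes were chosen after their values were seen. Alternatives were 3 scalings, 2 floors, no floor (log2 of signal plus 1), a pseudocount of 16, other probe set rules and fold limits of 1.5 and 3.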

Additional observations from a re-analysis of the deposited data

How the results depend on the processing

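Over 11 alternatives, 78 of 79 values of the 8 genes stayed above 0 and 69 moved by less than the SD between probe sets. The exception in sign was Nes, at -0.06 with its second brightest probe set. Many of these values were fixed in advance. Krt19, Krt20 and Des passed the floor on the cystic array alone, so their bounds cannot be below 0 unless the cystic floor is the lower one. Krt7, Krt18, Krt19 and Krt20 have 1 probe set each, so probe set rules could drop them but not move them. The count of 6 genes that rose was between 4 and 8 under the other scalings, floors and probe set choices, except with second brightest probe sets. There it was 1 of 3 measured genes. It was 6 of 6 measured genes with the floor at the 60th percentile, and 4 of 6 without probe sets marked _s_at, _x_at or _a_at. At a 3-fold limit the count was 3. The keratin median of 1.44 was 1.79 with the floor at the 60th percentile, 2.15 with no floor, 2.11 with the pseudocount, 0.94 with second brightest probe sets and 2.15 without probe sets marked _s_at, _x_at or _a_at. The mesenchymal median of 1.16 was 1.81 with the floor at the 60th percentile and 0.55 when a gene takes the median of its probe sets. The difference of the class medians, 0.28, was -0.02, 0.99, 0.85, 0.89, -0.15 and 0.99 with the floor at the 60th percentile, no floor, the pseudocount, the median over probe sets, second brightest probe sets and without marked probe sets. It was negative only where some of the 8 genes have no value. With no floor, 1992 of 18193 measured genes were higher and 1520 lower past 2-fold. With second brightest probe sets, 302 of 5428 measured genes were higher and 183 lower. Of the 12015 genes measured in the main setting, 1970 were higher and 1297 lower at 1.5-fold, and 274 and 116 at 3-fold. The choice of the brightest probe set before raising signals to the floor was added after the data were seen and left the 6 calls at 6. The causes of these shifts were not tested. No paired analysis was possible because each group has 1 array. Signals near the floor limit Krt19, Krt20 and Des to bounds.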

Other observations

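A list of transition factors and cadherins, genes often read beside vimentin and keratins, had 5 measured members of 8. Of the 5, 2 rose and none fell, against 7.06% and 3.78% of all measured genes, and the median was 0.61. Cdh11, a cadherin of mesenchymal cells, had a signal of 1386 in the cystic and 312 in the control kidney, a log2 ratio of 2.15 and of 0.82 at its second probe set. Snai2 had a log2 ratio of 1.06, Zeb2 0.61 and Zeb1 0.21. Twist1, Twist2 and Cdh2 were under the floor on both arrays.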
